A study of Mus musculus with 2 samples.

Results

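The retinoid genes described here are 10 genes that make, store, bind, break down or sense retinoic acid, namely Lrat, Rdh10, Aldh1a2, Cyp26a1, Cyp26b1, Crabp1, Crabp2, Rara, Rarb and Rarg. They were chosen by gene symbol, at a time when their reads in these same libraries, and so the ratios between the libraries, were already known. They account for 10 of 23157 genes and 26 of 64053 transcripts in the data. Poly(A)-selected RNA-seq was available for distal forelimbs at embryonic stage E12.5, from 1 wild-type pool and from 1 pool of the HoxD Inv(TpSB1-Itga6) allele. In this allele 2.4 Mb of chromosome 2 next to the HoxD cluster are inverted. The inverted tissue came from homozygous embryos, both pools carry the strain label C57Bl6CBAF1, and the series describes 3 pairs of forelimbs. The tissue label of both samples is distal limb, although the title of the wild-type sample names the forelimb without the word distal. The comparison asks what the displacement of islands I and II, digit enhancers of Hoxd13, does to transcripts in the digit-forming tissue. Here it is read for genes that all lie outside chromosome 2.

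Retinoic acid is made from vitamin A in consecutive oxidations. Rdh10 turns retinol into retinaldehyde, and Aldh1a2 turns retinaldehyde into retinoic acid, whereas Lrat stores retinol as retinyl esters and the Cyp26 enzymes hydroxylate retinoic acid for removal. The acid is carried in the cell by Crabp proteins and acts through the receptors Rara, Rarb and Rarg, which bind DNA together with an Rxr partner at pairs of short direct repeats. In the limb bud, Cyp26b1 is known to keep the distal mesenchyme low in retinoic acid, and Aldh1a2 and Rarb are later known in the tissue between the digits.

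The unit throughout is the normalized read, a read count divided by the authors' size factor for the library, which does not correct for transcript length. A single read was worth 1.01 normalized reads in wild type against 0.988 in the inversion, and the libraries held 9280660 and 9466154 reads. Log2 ratios divide the inversion by the wild type after adding 1 normalized read to each, so that changes of weakly read genes come out too small. With 1 library per genotype no difference has a replicate check, and no test between genotypes was possible. The 95% intervals of log2 ratios were computed from the part of a gene's or transcript's reads that lay in the inversion library, by the exact Clopper-Pearson method. They cover counting error alone and set library against library, not genotype against genotype.

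The 10 genes had 11327 normalized reads in sum in wild type against 9109 in the inversion. The log2 ratio was below 0 for 8 genes and above 0 for 2, with a median of -0.34, beside -0.02 for the 16756 genes whose mean reached 10 normalized reads. All 10 genes passed this filter. The interval lay below 0 for 6 genes and above 0 for none, and held 0 for the other 4. Over all genes that passed, 13% had an interval below 0 and 16.7% one above it. At least 2-fold lower was 1 of the 10 genes, Lrat, where 0.483% of all genes were, and none was at least 2-fold higher, where 3.99% of all genes were. At least 1.5-fold lower were 3, Lrat, Aldh1a2 and Rarb, beside 2.04% of all genes, and none was 1.5-fold higher, beside 9.41% of all genes. As the genes were chosen with their values in view, these counts describe them and support nothing further.

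**Figure D1:**
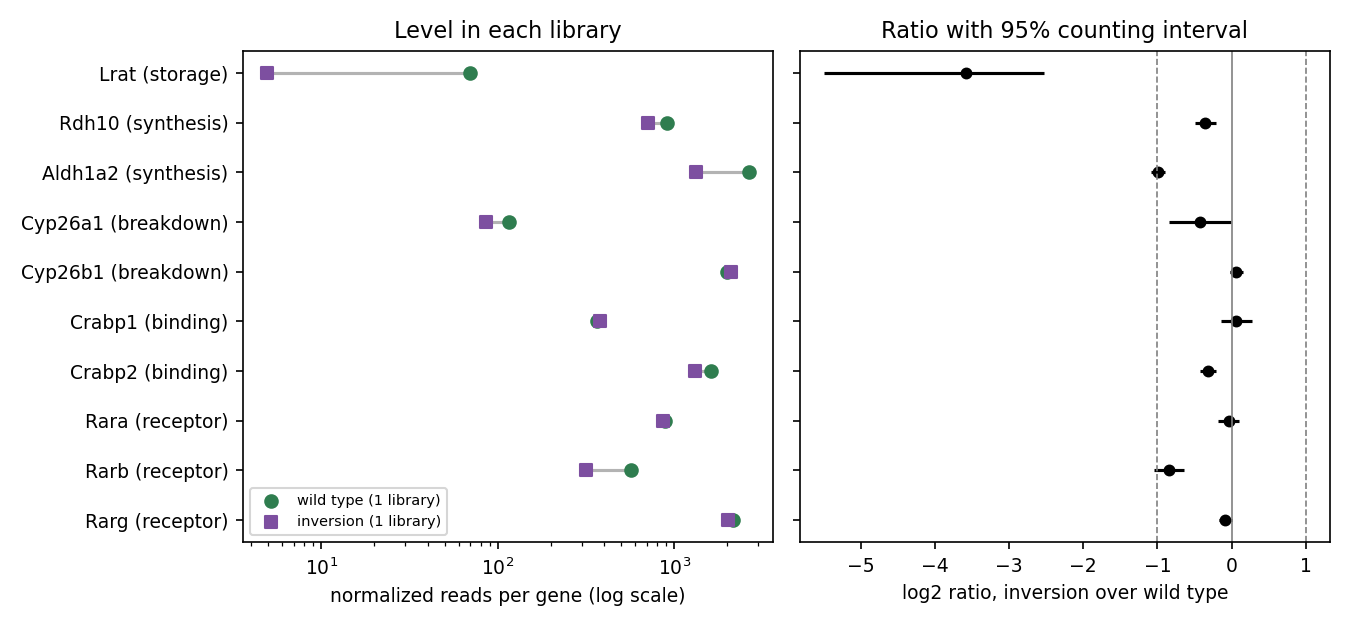
The left panel plots normalized reads of each of the 10 genes on a log scale in the wild-type (circles) and the inversion library (squares), and the right panel plots the log2 ratios (inversion over wild type), with bars for the exact 95% interval of the counting error and dashed lines at 2-fold. Lrat (-3.58), Aldh1a2 (-0.995) and Rarb (-0.84) lie lowest, and the intervals of Rara, Rarg, Crabp1 and Cyp26b1 cross 0.

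Promoter sequences are shown for the genes with the lowest gene-level ratios and for the 2 genes whose start windows hold a receptor-type repeat. They come from RefSeq on GRCm38.p6, are written 5′ to 3′ on the strand of the gene, and end at the start of the annotated transcript, except for Rarb. Capitals mark the half-sites of the repeat, where there is one.
Lrat, chr3:82903975-82904124, minus strand: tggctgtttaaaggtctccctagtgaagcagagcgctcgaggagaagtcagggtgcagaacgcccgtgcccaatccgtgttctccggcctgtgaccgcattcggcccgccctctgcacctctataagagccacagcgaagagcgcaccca
Aldh1a2, chr9:71215639-71215788, plus strand: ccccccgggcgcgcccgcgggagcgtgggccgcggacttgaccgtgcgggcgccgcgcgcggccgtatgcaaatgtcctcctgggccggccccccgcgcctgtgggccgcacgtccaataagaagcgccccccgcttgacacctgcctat
Rarb, chr14:16575506-16575535, minus strand: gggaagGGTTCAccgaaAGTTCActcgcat
Cyp26a1, chr19:37697658-37697797, plus strand: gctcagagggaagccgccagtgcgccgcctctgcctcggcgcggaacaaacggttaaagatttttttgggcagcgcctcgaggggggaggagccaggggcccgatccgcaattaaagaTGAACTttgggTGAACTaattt
The half-sites searched were AGGTCA with its variant AGTTCA, and GGGTCA with its variant GGTTCA, in any pair. The search took their direct repeats on either strand with 5 bases between them, the spacing called DR5, and, separately, with 2 or 1 bases between them, so that the searches share half-sites. The window ran from 250 bases before to 50 bases after the RefSeq start. It was available for 8 of the 10 genes, in 12 windows, but not for Rdh10 and Crabp2, which were therefore not searched. A DR5 was found in 0.0974% of the 32851 mouse windows, and in those of Rarb and Cyp26a1. Repeats with 2 bases (0.268% of windows) or 1 base (0.222%) between the half-sites were in none of the 12 windows. In Rarb the repeat starts 53 bases before the RefSeq start, at chr14:16575513-16575529, which is 14 bases after the GENCODE start of Rarb-201, so only 30 bases are shown. In Cyp26a1 it starts 32 bases before the RefSeq start, on the opposite strand. Both promoters are known from earlier work to carry a retinoic acid response element of this kind. The windows of Lrat and Aldh1a2 held none of these letters in these spacings, and 76.0% of the printed bases of Aldh1a2 and 60.7% of those of Lrat were G or C. A match is a description of letters and was not tested as a binding site. Of the 31 genes with a DR5, 7 passed the filter, and their median was -0.27 (log2 ratio), beside -0.02 for all genes that passed. These 7 include Rarb and Cyp26a1, which were chosen with their values known, and the erythroid gene Hbb-y (-0.27). Without Rarb and Cyp26a1 the median of the other 5 was -0.21. Rarb was the lowest of the 7, and Prokr2 the highest at 0.47.

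Lrat esterifies retinol for storage and lies at chr3:82892579-82903973 on the minus strand, with 1 transcript in the data. It had 69 reads in wild type against 5 in the inversion, or 69.9 and 4.94 normalized reads. This was 14.1-fold lower in the inversion, with a log2 ratio of -3.58 (95% interval -5.49 to -2.53). Only 2 of the 16756 genes had a lower log2 ratio. Among the 2669 genes with a mean from 30 to 100 normalized reads Lrat was the lowest, where 0.712% were at least 2-fold lower and 3.67% at least 1.5-fold lower. Lrat has this mean through its wild-type reads, and it was chosen with these values known, so its ranks are description only. The count in the inversion is small, so the size of the fold is known within wide limits, but even the upper limit of the interval lies beyond 4-fold. Per kilobase of transcript, Lrat had the lowest level of the 10 genes in both libraries. It overlaps an antisense gene, Rbm46os, and, because use of the strand in counting is not given in the sources used here, reads of that gene cannot be told apart from its own.

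Rdh10 and Aldh1a2 are the consecutive synthetic enzymes. Rdh10 (chr1:16105774-16133734, plus strand) had 900 reads in wild type against 722 in the inversion, or 911 and 713 normalized reads. Its log2 ratio was -0.35 (95% interval -0.50 to -0.21). Aldh1a2 (chr9:71215789-71296243, plus strand) had 2608 reads and 1341 reads, or 2641 and 1324 normalized reads. This was 1.99-fold lower in the inversion, just short of the 2-fold threshold (log2 ratio -0.995, 95% interval -1.09 to -0.90). Of the 2975 genes whose mean reached 1000 normalized reads, only Xist had a lower log2 ratio, while 0.0336% were at least 2-fold lower and 0.336% at least 1.5-fold lower. Both Rdh10 transcripts were lower, the protein-coding Rdh10-201 with a log2 ratio of -0.38 and the retained-intron Rdh10-202 with -0.30. Aldh1a2 overlaps a pseudogene in the annotation, and reads in that overlap are of uncertain origin.

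The hydroxylases Cyp26a1 and Cyp26b1 remove retinoic acid. Cyp26a1 (chr19:37697798-37701536, plus strand) had 114 reads in wild type against 87 in the inversion, or 115 and 85.9 normalized reads. Its log2 ratio was -0.42, with a wide interval from -0.85 to -0.01 that nearly reaches 0. Cyp26b1 (chr6:84571414-84593908, minus strand) had 1971 and 2117 reads, or 1996 and 2091 normalized reads. The log2 ratio of 0.07 had an interval from -0.02 to 0.16, and a difference was not detectable at this depth. Its 2 transcripts had the same log2 ratio of 0.07. Per kilobase of transcript Cyp26b1 had the higher level of this pair in both libraries (479 normalized reads against 64.5 in wild type), and it was among the 2 genes of the 10 that were not below 0.

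Of the binding proteins, Crabp2 was lower in the inversion, and for Crabp1 no difference was detectable at this depth. Crabp1 (chr9:54764748-54773110, plus strand) had 360 reads in wild type against 386 in the inversion, or 365 and 381 normalized reads. Its log2 ratio was 0.06, with an interval from -0.15 to 0.28 that holds 0. Crabp2 (chr3:87948666-87953376, plus strand) had 1606 and 1320 reads, or 1626 and 1304 normalized reads. Its log2 ratio of -0.32 (95% interval -0.43 to -0.21) went with a log2 ratio of -0.36 for the protein-coding Crabp2-201, whereas the retained-intron Crabp2-202 had 124 and 134 reads and a log2 ratio of 0.08.

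Of the receptor genes, Rarb was lower in the inversion, while Rara and Rarg were close in both libraries. Rara (chr11:98927818-98974942, plus strand) had 873 reads in wild type against 871 in the inversion, or 884 and 860 normalized reads, and a log2 ratio of -0.04 (95% interval -0.18 to 0.10). Rarg (chr15:102234938-102257517, minus strand) had 2121 and 2053 reads, or 2148 and 2028 normalized reads, and a log2 ratio of -0.08 (95% interval -0.17 to 0.01). Neither difference was detectable at this depth. Rarb (chr14:16430839-16819156, minus strand) had 564 and 322 reads, or 571 and 318 normalized reads. It was 1.80-fold lower, with a log2 ratio of -0.84 (95% interval -1.05 to -0.64). Among the 8856 genes with a mean from 100 to 1000 normalized reads 17 had a lower log2 ratio, while 0.124% were at least 2-fold lower and 0.587% at least 1.5-fold lower. The span of Rarb overlaps Top2b, which had 5417 and 5256 reads, and the antisense gene Gm48162, both on the other strand, and in the overlap their reads cannot be told apart from its own without the strand. Rara likewise overlaps an annotated snRNA gene.

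Single receptor transcripts differed between the libraries also where the gene sums were close. Of the 26 transcripts, 25 passed a mean of 10 normalized reads. Of these 3 were at least 2-fold lower (Lrat-201, Rarb-201 and Rara-202), beside 2.19% of 45239 transcripts, and 2 were at least 2-fold higher (Rara-201 and Rarg-204), beside 6.66%. How reads that match several transcripts of a gene were shared is not given in the sources used here, so these values depend on that assignment. For scale, of 30364 transcripts in genes with several transcripts and a gene ratio within 1.2-fold, 2.13% were at least 2-fold lower and 3.42% at least 2-fold higher.

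Rarb-201, the transcript whose first exon holds the DR5, had 335 reads in wild type against 136 in the inversion. Its log2 ratio was -1.33 (95% interval -1.63 to -1.04). The other Rarb transcript, ENSMUST00000037779, which GENCODE M21 does not list, had 229 and 186 reads and a log2 ratio of -0.33 (95% interval -0.62 to -0.05). Thus Rarb-201 had the larger part of the Rarb reads in wild type, 59.4% (exact 95% interval 55.2 to 63.5%), and the smaller part in the inversion, 42.2% (36.8 to 47.8%). These intervals cover counting error alone and leave out how reads that match both transcripts were shared.

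Rara-202 has a first exon of its own at chr11:98960412-98961133, downstream of the first exons of the other annotated Rara transcripts. It had 201 reads in wild type against 66 in the inversion, or 204 and 65.2 normalized reads (log2 ratio -1.63, 95% interval -2.07 to -1.23). Its share of the Rara reads was 23.0% (20.3 to 26.0%) and 7.58% (5.91 to 9.54%). The 7 other Rara transcripts had 672 and 805 reads in sum, a log2 ratio of 0.22 (95% interval 0.07 to 0.37). So the near-equal Rara total held a lower Rara-202 and a higher sum of the others. These were not uniform, as Rara-203 (167 and 136 reads) and ENSMUST00000170968 (191 and 173 reads) had log2 ratios of -0.33 and -0.18, with intervals that held 0. Rara-207 held the largest share in the inversion, with 229 and 343 reads (log2 ratio 0.54, 95% interval 0.30 to 0.79). Rara-201 had 0 of 873 reads in the wild-type library, which allows a share of up to 0.344% when 3 reads are taken as the limit of a count of 0, whereas the inversion had 29 reads.

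The main Rarg transcripts, Rarg-201 and Rarg-202, differed little. Rarg-201, from the upstream start, held 47.3% of the Rarg reads in wild type against 46.6% in the inversion. Rarg-202, from a start downstream of it, held 36.7% and 36.8%. Rarg-204, which also has a first exon of its own, was at least 2-fold higher, with 17 and 46 reads and a log2 ratio of 1.35 (95% interval 0.57 to 2.30), on a small count.

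**Figure D2:**
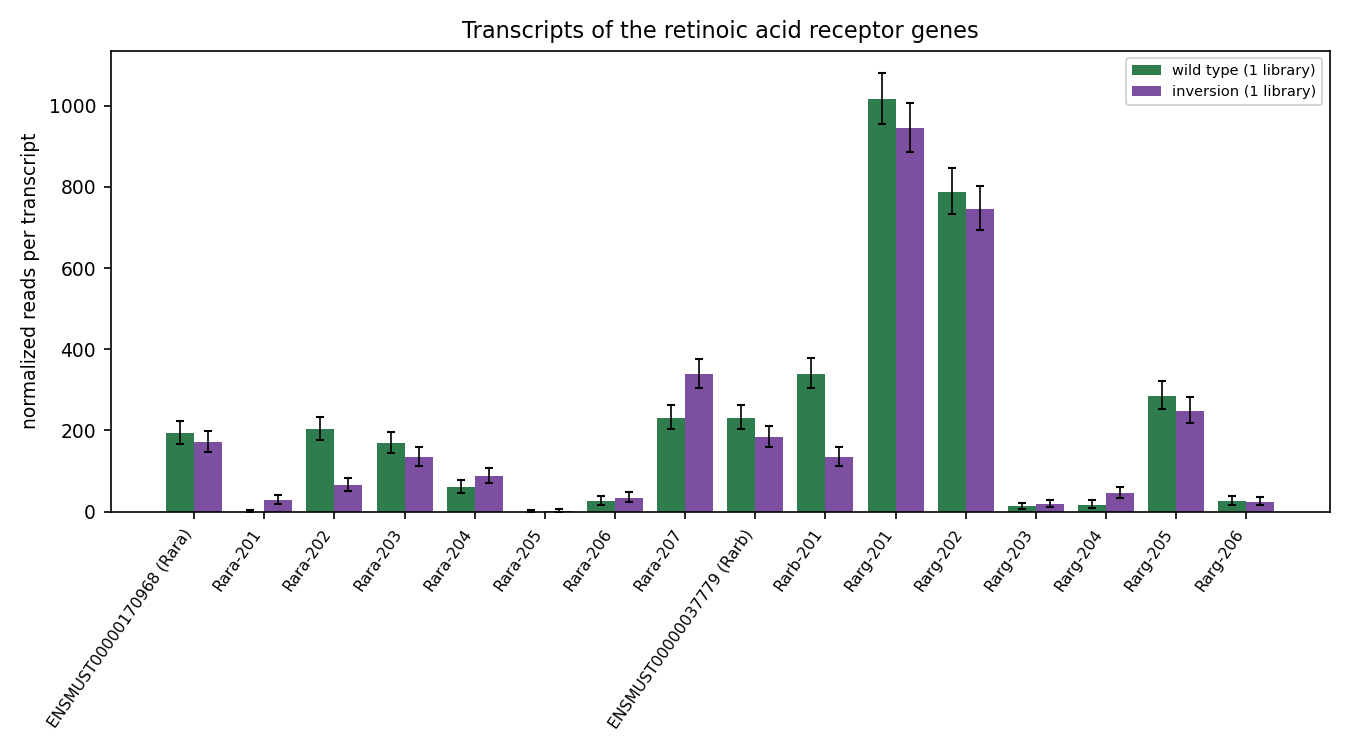
Bars give normalized reads of each transcript of Rara, Rarb and Rarg in the wild-type and the inversion library, on a linear axis from 0, with exact 95% Poisson intervals of the counting error as error bars. Rara-202 (204 and 65.2) and Rarb-201 (339 and 134) are lower in the inversion, Rara-207 (232 and 339) is higher, and Rarg-201 and Rarg-202, the tallest bars, differ little between the libraries.

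Levels per length put the 10 genes in an order, as normalized reads per kilobase of transcript, with the read-weighted mean length of a gene's annotated transcripts. In the wild-type library the levels per kilobase were 1793 for Crabp2, 1166 for Aldh1a2, 854 for Rarg, 479 for Cyp26b1 and 455 for Crabp1. Below them came 316 for Rara, 294 for Rdh10, 184 for Rarb, 64.5 for Cyp26a1 and 13.1 for Lrat. The intervals of Cyp26b1 and Crabp1 overlapped, as did those of Rara and Rdh10, and the other neighbours differed beyond counting error. In the inversion library Crabp2 stayed first at 1437 per kilobase. Aldh1a2, at 585, came below Rarg at 806, and the order of the rest was as in wild type. Only Cyp26b1 (502) and Crabp1 (475) had overlapping intervals there, and Lrat was at 0.923 per kilobase.

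Across the other retinoid genes the ratios were spread about 0. The list, put together with earlier results known, held 58 genes beside the 10. Of its 54 genes in the data 42 passed the filter, 16 below and 26 above 0, with a median log2 ratio of 0.05. None was at least 2-fold lower, beside 0.483% of all genes that passed, and 1 was at least 2-fold higher, beside 3.99%. The latter was Rarres2, a retinoid-responsive chemoattractant gene with 11 and 24 reads (log2 ratio 1.02, 95% interval 0.01 to 2.27). Of the 42 intervals, 10 lay below 0 and 12 above it, beside 13% and 16.7% of all genes that passed.

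By role, the 4 genes of carriers and uptake that passed were split, with 2 intervals below and 2 above 0. Their median log2 ratio was 0.07, while the whole list of this role summed to 1605 and 1267 normalized reads. Of the 4 genes the retinoid uptake receptor Stra6 was lower, with 1140 and 819 reads (log2 ratio -0.51, 95% interval -0.64 to -0.38). Among the other retinaldehyde dehydrogenases, Aldh1a3 went the other way from Aldh1a2, with 172 and 300 normalized reads (log2 ratio 0.80, 95% interval 0.53 to 1.08), and Aldh1a1 had 11 and 5 reads, too few to pass the filter. Of the 9 other retinol and retinaldehyde oxidoreductases that passed, 4 were below and 5 above 0, from -0.18 to 0.62 with a median of 0.03. Among them Dhrs3 (-0.18), Rdh11 (-0.11) and Adh5 (-0.17) were below 0, and the interval of Rdh11 held 0. The third hydroxylase, Cyp26c1, had 30 and 31 reads. Of the Rxr partners, Rxra, the one gene of these on chromosome 2, had a log2 ratio of -0.10 (95% interval -0.18 to -0.01), Rxrb 0.08 and Rxrg 0.46, with intervals of the latter pair that held 0. The fatty acid and retinoic acid binding protein Fabp5 had 154 and 206 reads (log2 ratio 0.38, 95% interval 0.08 to 0.69). Of 14 genes known to respond to retinoic acid, other than the 10, 6 were below and 8 above 0, with a median of 0.07. Nr2f1, a nuclear receptor gene of that list chosen after its values were seen, had 228 and 135 reads (log2 ratio -0.79, 95% interval -1.11 to -0.48). Dgat1, an acyltransferase that can also esterify retinol and likewise chosen after its values were seen, had 433 and 729 reads (log2 ratio 0.71, 95% interval 0.54 to 0.89).

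**Figure D3:**
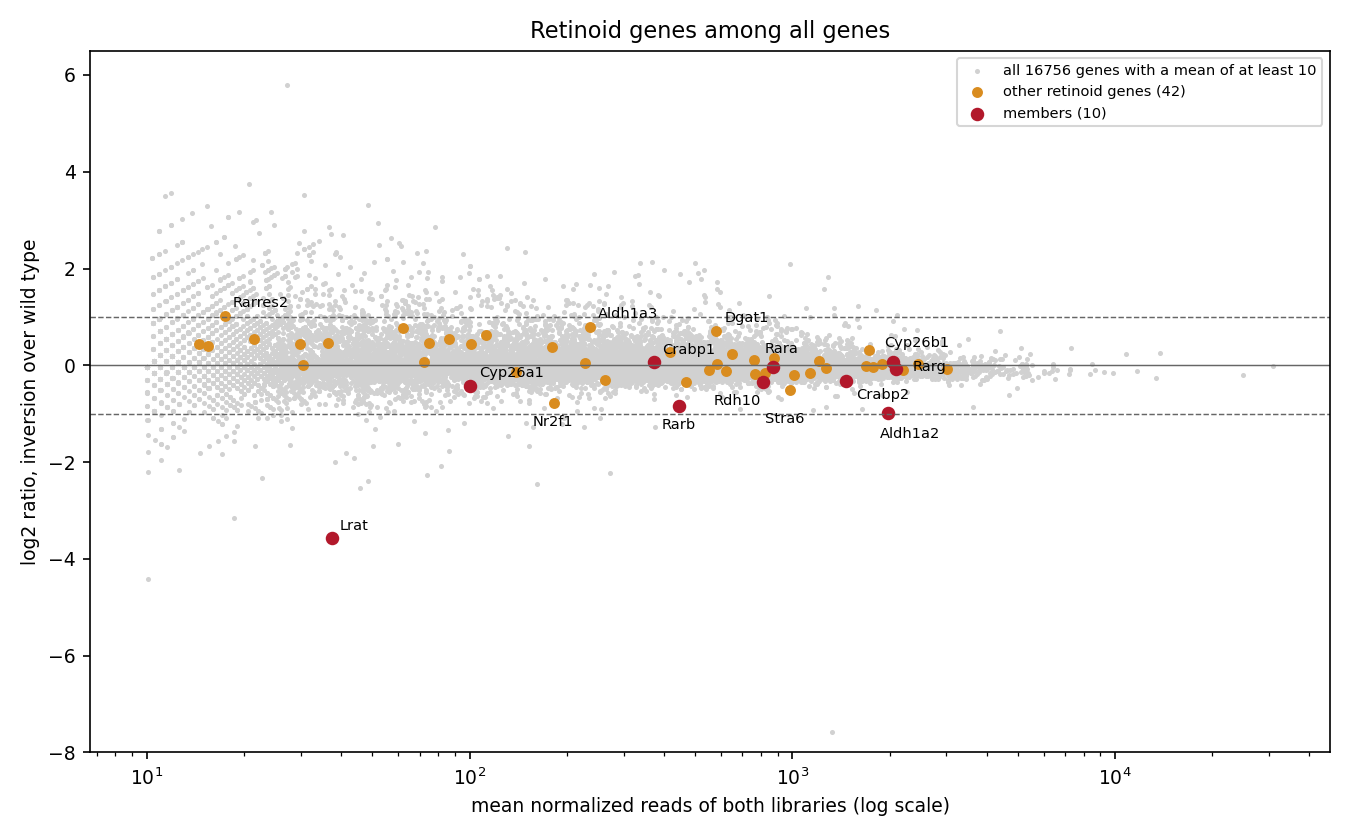
Each point is a gene, plotted by its mean normalized reads in both libraries on a log scale and by its log2 ratio (inversion over wild type), for all 16756 genes that passed the filter, with dashed lines at 2-fold. Lrat lies far below the genes of similar mean, Aldh1a2 lies at the lower line, and the 42 other retinoid genes spread on both sides of 0.

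The pools also differed in markers of cell types and of sex, and these values stand beside all the ratios above. Both libraries read as limb, with Prrx1, a limb mesenchyme gene, at 3857 and 3913 reads and the forelimb gene Tbx5 at 1663 and 1959 reads. The hindlimb genes were present at 430 and 394 reads for Tbx4 and 44 and 29 for Pitx1. The distal gene Hoxa13 had 1084 and 1208 reads, and Hoxd13, inside the HoxD cluster, had 2264 and 1522. Of the 8 distal limb genes, 5 were below 0 (10933 and 9345 normalized reads in sum). Without Hoxd12 and Hoxd13, a choice made after the values were seen, 3 of 6 were below 0 (7004 and 6942). This near-equal sum held opposite differences. Lhx2 (-0.43) and Msx1 (-0.22) had intervals below 0, and Hoxa13 (0.12), Sall1 (0.26) and Sall3 (1.07) had intervals above 0. All 6 genes listed for interdigital mesenchyme, where Aldh1a2 and Rarb are known to be expressed, were below 0, but only Bmp2 (-0.39) and Bmp7 (-0.33) had intervals below 0. The median was -0.08, and the sums were 4179 and 3677 normalized reads. Surface ectoderm genes were below 0 in 8 of 8 cases (6126 and 5267 normalized reads in sum). Muscle genes were above 0 in 7 of 8 cases (1003 and 2320), and cartilage genes in 5 of 7 (14090 and 17126). Proximal limb genes were below 0 in 4 of 5 cases, with intervals below 0 for Meis2 (-0.34) and Irx3 (-0.45). The other gene, Shox2, had 381 and 715 normalized reads, and with it the sum of the list was higher (1389 and 1528). Erythroid genes were below 0 in 5 of 5 cases (24292 and 20657), endothelial genes in 5 of 5 (3478 and 3266), and Schwann and neural crest genes above 0 in 4 of 5 (1038 and 1097). Of 3 neuronal genes that passed, 2 were below 0, and the whole list summed to 323 and 380 normalized reads. The liver gene Alb had 489 and 750 reads. No listed marker was at 0 in both libraries. In bulk samples, fewer cells of a type and less RNA per cell cannot be told apart, and the part of these differences in the retinoid ratios was not tested.

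Markers of sex differed as well. Summed reads of 4 Y-linked genes were 826 in wild type against 2820 in the inversion, and Xist, which is expressed from the inactive X chromosome of females, had 2607 and 13. The sex of the pool and the genotype cannot be told apart for any gene above.

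**Figure D4:**
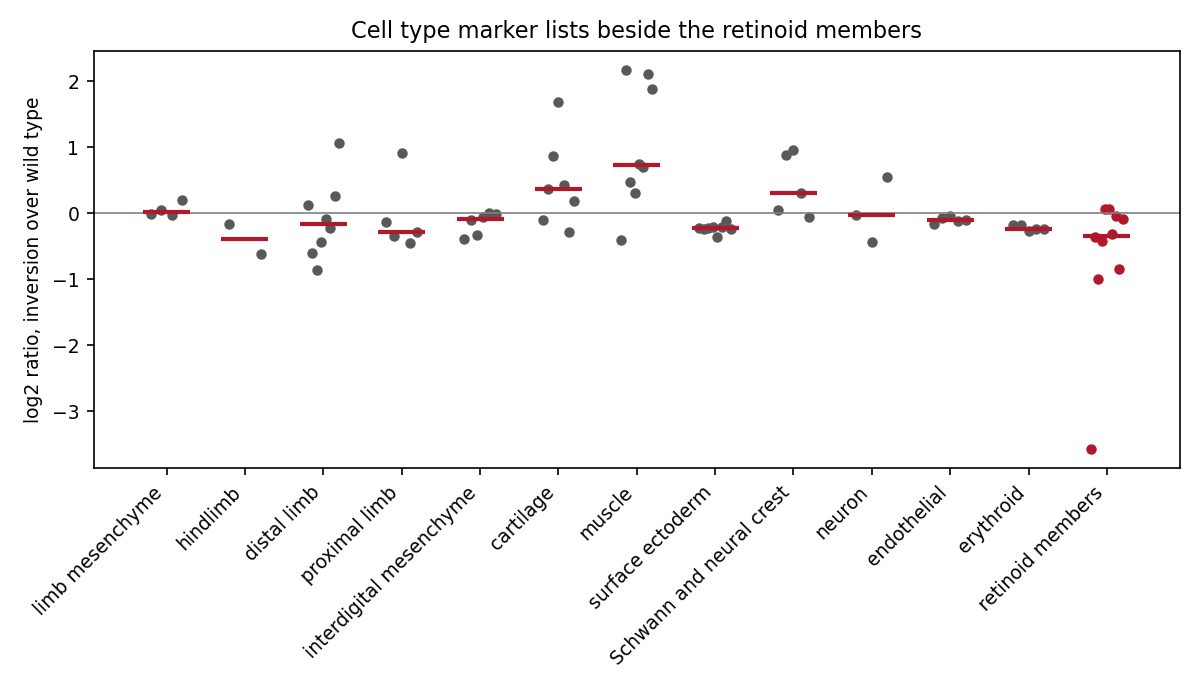
Each column is a marker list, with the 10 retinoid genes last, each point is the log2 ratio (inversion over wild type) of 1 gene that passed the filter, and bars mark list medians. The hepatic, Y-linked and Xist values are left out. Muscle genes lie mostly above 0, while the 8 surface ectoderm genes and the 6 interdigital genes all lie at or below 0.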

How the data were processed

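Total RNA of pooled E12.5 distal forelimbs was sequenced by the authors as stranded, poly(A)-selected libraries with 100-bp single-end reads. The reads were mapped to NCBIM37 (mm9, with Bowtie2 in the submitters' processing notes) and assigned to transcripts. The deposited table holds, as signal, the reads per transcript divided by a size factor by the authors, with 0.5 for none; its fold change, log2, p-value and adjusted p-value columns were not used. The study's methods name RPKM, but the values do not scale with length. Each of the values above 0.5 (100%) gave a whole number of reads within 0.0051, so depth is known (9280660 and 9466154 reads). No per-sample column was unmapped (0).

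Transcripts were summed by symbol and chromosome and compared as log2 ratios with a pseudocount of 1, where the mean reached 10. Types, lengths and positions were taken from GENCODE M21 (GRCm38) by identifier, found for 88.1% of transcripts and 24 of 26 of the retinoid transcripts; promoters from RefSeq. The planned design had no test, as there is 1 library per genotype; nothing says that pools were independent. The genes and lists were chosen with earlier results of these data known, and the named genes are the 10, their fixed paralogues and partners, of which 1 is not reported here, and other genes of the retinoid list at least 2-fold changed; the repeat search, Nr2f1, Dgat1 and neighbouring genes were chosen after values were seen. Alternatives were scaling, pseudocount, filter, fold threshold, transcripts used, length and an exact binomial test. Scripts were tested on simulated data. The tools were pandas 2.3.3 and numpy 2.4.6 in Python 3.11.15, with scipy 1.17.1 for intervals and matplotlib 3.10.9 for plots.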

Additional observations from a re-analysis of the deposited data

How the results depend on the processing

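Of 166 values under an alternative, 128 stayed and 38 moved. Ratios, levels and shares stayed when within their counting interval, and counts when within 1.5 times the count. Medians stayed when their shift was no larger than the median distance from centre to limit of the single-gene intervals. The median log2 ratio of the 10 genes lay between -0.37 and -0.28 under every alternative, where the filter at a mean of 100 keeps 9 of them. The median of the whole retinoid list, 0.03 with the 10 genes included, lay between -0.05 and 0.08. Scaling by the upper quartile put Rara at 0.02. With the transcript of the highest mean alone, Rara was 0.54 and Rarb -1.33 (log2 ratio), and with protein-coding transcripts only Rarb was -1.33. Of the 10 genes, 2 were at least 2-fold lower with the highest-mean transcript and 2 with protein-coding transcripts only, 3 at a 1.5-fold threshold, and 0 with a filter at a mean of 100, which leaves out Lrat. Of the retinoid list, those lower numbered 2, 2, 4 with no filter, 0 with the filter at 100 and 4 at 1.5-fold; those higher numbered 0 with a pseudocount of 5, 2 with no filter, 0 with the filter at 100, 5 at 1.5-fold and 0 at 4-fold. Of all genes, those lower numbered 1089 with no filter, 12 with the filter at 100, 341 at 1.5-fold, 13 at 4-fold and 1318 by the exact binomial test; those higher numbered 412 with protein-coding transcripts only, 1992, 139, 1577, 113 and 2068 respectively. The counts of that test (Benjamini-Hochberg adjusted p of 0.05) had no fold threshold and take in genes of any fold. It compares libraries, not genotypes. With the length of the longest transcript, levels per kilobase in wild type and inversion were 254 and 199 for Rdh10, 261 and 254 for Rara, and 727 and 687 for Rarg. Among protein-coding transcripts only, Rara-202 had 30.6% and 9.97% of reads and Rarb-201 100% and 100%, since the other Rarb transcript has no type in GENCODE M21. Where not given above, the cause was not tested. Depth limits Lrat (5 reads in the inversion library) and Cyp26a1 most. No paired analysis was possible because the study holds 1 library per genotype.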

Other observations

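The protein-coding genes on either side of the 10 retinoid genes were read in the same way, an addition made after the values were seen. Of 20 neighbours 18 passed the filter, and their median was -0.03 (log2 ratio). None was at least 2-fold lower, beside 0.483% of all genes that passed, and 1 was at least 2-fold higher, beside 3.99%. The latter was Rpl7 beside Rdh10, at 1.46 (95% interval 1.06 to 1.90), a ribosomal protein gene whose reads can be shared with near-identical copies. Beside Lrat, Rbm46 had 54 and 36 reads (log2 ratio -0.61, 95% interval -1.27 to 0.01) and Fgg 61 and 92 (0.55, 95% interval 0.07 to 1.05). Beside Aldh1a2, Cgnl1 had 1035 and 1060 reads, and its interval of -0.13 to 0.12 held 0. Beside Rarb, Top2b had a log2 ratio of -0.08 and Thrb of 0.03.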
